A study of Mus musculus with 6 samples.

Results

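Mouse intestinal organoids treated with an antagonist of the retinoid X receptors (RXRi, 5 µM) were set against organoids treated with all-trans retinoic acid (atRA, 10 µM), both at day 4. Organoids are epithelial cultures that are grown from single cells and form the cell types of the intestinal lining. All deposited cell barcodes of the 2 libraries were used, 3570 from the antagonist and 5365 from retinoic acid, which made 8935 of the 29565 cells in the 6 libraries of the series. The members were chosen by label alone and not by any measured value. The cells of every group came from wild-type C57BL/6 mice of 8 weeks. Treatment began at day 0 and was renewed at day 3, and cells were taken 96 hours after the first treatment. All groups shared the same culture base, with EGF, Noggin and R-spondin throughout and Wnt3a-conditioned medium, the kinase inhibitor Y-27632 and a GSK3 inhibitor (CHIR99021) up to day 3. The day 4 libraries of organoids given vehicle and of organoids kept in medium free of vitamin A are given beside the values as levels only. The antagonist and retinoic acid are different compounds at different doses, so the comparison sets 2 treatments side by side and says nothing of potency. The labels give the doses as 5 and 10 of a unit written with a small letter m, which is read here as micromolar. The series names 2 mice in duplicate, but the labels tie no library to a mouse.

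Retinoid X receptors are ligand-controlled transcription factors that bind DNA as the partner of many other nuclear receptors. With the retinoic acid receptors (RAR) they carry the response to retinoic acid, the active form of vitamin A. With PPAR, FXR, LXR, VDR, PXR and CAR they carry responses to fatty acids, bile acids, oxysterols, vitamin D and foreign compounds. In the intestine these pathways act mostly in enterocytes, the absorptive cells that take up fat, sugar, peptides and vitamin A itself. After injury the intestinal epithelium can pass through a regenerative state that shares genes with the fetal gut, among them Ly6a, annexins and keratins.

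Each treatment was 1 library, so no difference has a replicate check, no test was possible and no p-value is given. The antagonist library held 49364894 UMIs (unique molecular identifiers, each a captured mRNA molecule) and the retinoic acid library 64055924, with a median of 13431 UMIs per cell with the antagonist and 11782 with retinoic acid. Levels are UMI counts scaled to an equal total for each library (CPM), and 95% intervals (exact Poisson or exact conditional binomial) cover counting error only. Ratios are antagonist over retinoic acid, and log2 ratios were taken after adding 5 CPM, which understates the difference of low genes. A gene was compared where it reached a floor of 10 CPM in either library. A gene that reached it in only 1 library tends to differ for that reason, so for most lists the count over genes at the floor in both is given too. Of 8186 genes compared, 1096 (13.4%) had a ratio, with the 5 CPM added, of 2 or more and count here as higher, and 752 (9.19%) had a ratio of 0.5 or less and count as lower. Among the 6469 genes at the floor in both libraries, 607 (9.38%) were higher and 384 (5.94%) lower. The median of all genes lay at a log2 ratio of 0.33, and each library's top 10 genes held 9.03% of UMIs (antagonist) and 17.2% (retinoic acid). With TMM factors, which remove that shift, the split was 666 higher and 1034 lower, and relative to the median of all genes 638 were higher (7.79%) and 1038 lower (12.7%). A list median less 0.33 is the median relative to all genes, which is printed for some lists. The cells of both libraries were epithelial by their markers: at 4000 UMIs 99.97% of antagonist cells and 99.98% of retinoic acid cells had at least 3 of 8 epithelial genes, and no cell passed the gates for immune, fibroblast or endothelial genes (exact binomial upper limits 0.108% with the antagonist and 0.0717% with retinoic acid). The 4 defining immune markers summed to 0.081 CPM with the antagonist and 3.61 CPM with retinoic acid, where 3 of the 4 were at 0. The median mitochondrial share was 1.84% of UMIs with the antagonist and 4.40% with retinoic acid, and the part of RNA quality or depth in any result was not tested. The antagonist and retinoic acid libraries shared 2 cell barcodes, and pairs of the 6 libraries shared 2 to 17.

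**Figure D1:**
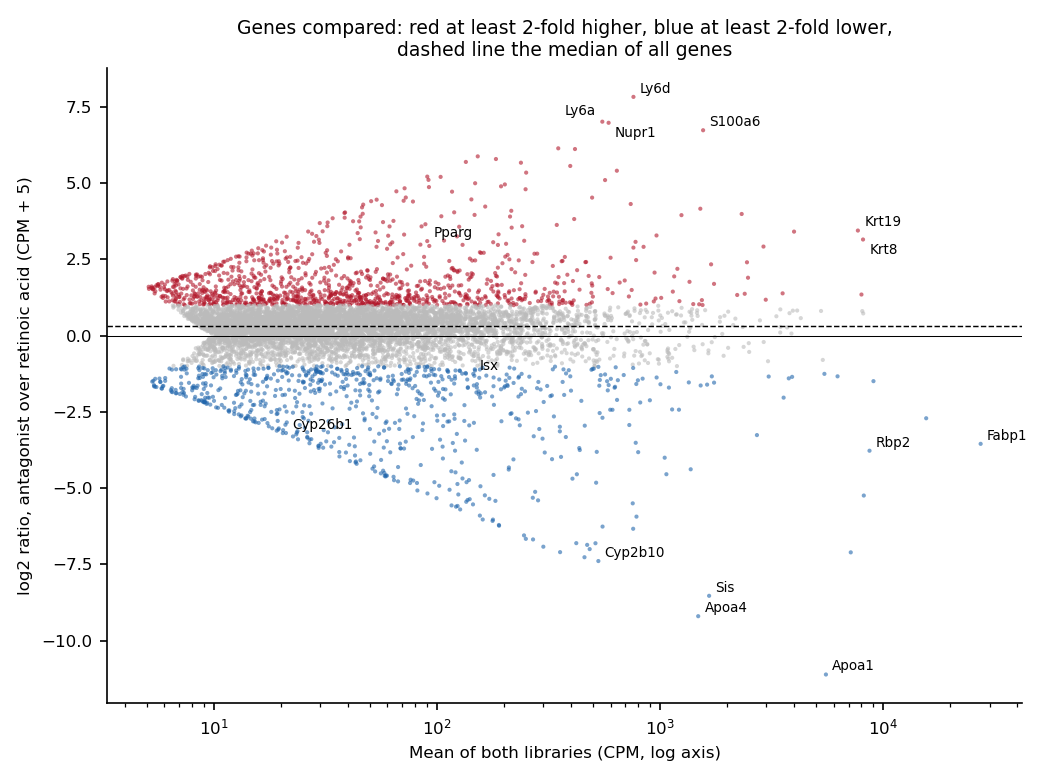
Log2 ratio of the antagonist over retinoic acid (y axis, CPM + 5) against the mean level of both libraries (x axis, CPM, log axis) for the 8186 genes compared, 1 point a gene. Red points (1096) count as higher with the antagonist by 2-fold or more, blue points (752) as lower, and the dashed line is the median of all genes at 0.33.

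The widest differences lay in absorptive genes on the low side and in genes of the regenerative state on the high side. Apoa1, the main protein of high-density lipoprotein, had 1 UMI with the antagonist and 710228 UMIs (11088 CPM) with retinoic acid. Apoa4, a chylomicron apolipoprotein, had 3 UMIs with the antagonist and 190038 UMIs (2967 CPM) with retinoic acid. Both were also well detected without added ligand, Apoa1 at 2455 CPM in vehicle and 1113 CPM in vitamin A-free medium and Apoa4 at 1001 CPM in vehicle and 766 CPM in vitamin A-free medium. At the other end Ly6d, a GPI-anchored surface protein of the Ly6 family, had 1519 CPM with the antagonist and 1.69 CPM with retinoic acid, a ratio of 901 (95% interval 746 to 1098). Vehicle held 0.342 CPM of Ly6d and vitamin A-free medium 1.08 CPM, so the antagonist library alone was high. Ly6a, known as Sca-1 and a marker of regenerating epithelium, had 1099 CPM with the antagonist and 3.51 CPM with retinoic acid (ratio 313, 275 to 358). The ratios were far from even in size: at 4-fold 274 genes were higher (3.35%) and 324 lower (3.96%), but at 16-fold 42 were higher and 91 lower, and at 64-fold 6 were higher and 22 lower. In summed UMIs, fewer cells of a type and less RNA per cell cannot be told apart, and the per-cell values further on bear on that.

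Of the 6 retinoid receptor genes, only Rarg passed 2-fold at equal library totals. Rarg, which encodes RAR gamma, had 11.5 CPM with the antagonist and 1.62 CPM with retinoic acid, a ratio of 7.07 (5.73 to 8.81), and stood at 2.53 CPM in vehicle and 1.75 CPM in vitamin A-free medium. Its log2 ratio was 1.32, and relative to the median of all genes it fell short of 2-fold. Rxra, which encodes RXR alpha, had 9.20 CPM with the antagonist and 18.3 CPM with retinoic acid (log2 ratio -0.72), and relative to the median of all genes it was the 1 receptor past 2-fold. Rara and Rxrb stayed within 2-fold, at 19.2 and 24.9 CPM with the antagonist against 14.2 and 21.0 CPM with retinoic acid. Rarb and Rxrg had 0 UMIs in both libraries.

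Among 11 partners of RXR at the floor, 1 was higher and 5 were lower with the antagonist (9 at the floor in both libraries, 1 higher and 4 lower), with a median log2 ratio of -0.89, or -1.22 relative to all genes. Pparg, the receptor for fatty acid ligands best known from fat cells, was the 1 on the high side, with 166 CPM with the antagonist and 14.9 CPM with retinoic acid (ratio 11.1, 10.4 to 11.9), against 30.8 CPM in vehicle. Ppara, its relative that drives fatty acid oxidation, went the other way, with 38.3 CPM with the antagonist and 175 CPM with retinoic acid, against 52.6 CPM in vehicle. The vitamin D receptor Vdr had 13.6 CPM with the antagonist and 123 CPM with retinoic acid, and its vehicle and vitamin A-free levels of 117 and 124 CPM were close to the retinoic acid level. Nr1h3, the LXR alpha gene, had 2.80 CPM with the antagonist and 36.6 CPM with retinoic acid, and Nr1i3, the CAR gene, 21.5 CPM with the antagonist and 89.0 CPM with retinoic acid. Of 8 coregulators, 3 were lower and none was higher (5 at the floor in both, 2 lower), led by Ppargc1a, a coactivator of mitochondrial genes, with 2.27 CPM with the antagonist and 19.1 CPM with retinoic acid. Nrip1, which represses many nuclear receptors, had 58.5 CPM with the antagonist and 130 CPM with retinoic acid.

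The genes that break down retinoic acid or hold retinoid uptake in check separated the 4 day 4 libraries in different ways. Cyp26b1, a hydroxylase that degrades retinoic acid and is induced by it, had 0.142 CPM (7 UMIs) with the antagonist and 41.9 CPM with retinoic acid, with 0.304 CPM in vehicle and 0.0385 CPM in vitamin A-free medium. Only the library given retinoic acid was high. Isx, the intestinal factor that represses vitamin A uptake, had 84.0 CPM with the antagonist and 207 CPM with retinoic acid, against 172 CPM in vehicle and 0.0577 CPM in vitamin A-free medium. The antagonist level of Isx was thus below vehicle yet far above the level without vitamin A. Scarb1, a carotenoid and lipid transporter under Isx, had 10.4 CPM with the antagonist and 2.87 CPM with retinoic acid, against 7.64 CPM in vehicle and 78.8 CPM in vitamin A-free medium. Dhrs3, which turns retinal back into retinol, had 28.8 CPM with the antagonist and 96.5 CPM with retinoic acid.

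Enzymes that oxidise retinol and retinal were lower with the antagonist in 7 of the 10 genes at the floor and higher in 1 (7 at the floor in both libraries, 1 higher and 4 lower), with a median log2 ratio of -3.76. Rdh7, a retinol dehydrogenase, had 1.86 CPM with the antagonist and 203 CPM with retinoic acid, against 207 CPM in vehicle. Adh1, an alcohol dehydrogenase that acts on retinol, had 25.6 CPM with the antagonist and 785 CPM with retinoic acid. Aldh1a1, which makes retinoic acid from retinal, had 30.3 CPM with the antagonist and 818 CPM with retinoic acid (27.0-fold lower, 25.6 to 28.4), against 285 CPM in vehicle and 198 CPM in vitamin A-free medium. Adh4 had 0 UMIs with the antagonist and 118 CPM with retinoic acid, at least 1935-fold lower against 3 UMIs. Retsat, the retinol saturase, had 20.6 CPM with the antagonist and 420 CPM with retinoic acid. Retinoid-binding proteins split by type: Rbp2, the cellular binding protein of enterocytes, had 1182 CPM with the antagonist and 16203 CPM with retinoic acid (13.7-fold lower, 13.6 to 13.8). Fabp5, a fatty acid-binding protein that can also carry retinoic acid, had 956 CPM with the antagonist and 36.6 CPM with retinoic acid (ratio 26.1, 25 to 27.2). Of 7 retinoic acid response genes at the floor, 3 were higher and 3 lower (3 at the floor in both, 1 higher and 1 lower), so that list had no common direction. Gprc5a, an orphan receptor first found as a gene induced by retinoic acid, had 154 CPM with the antagonist and 2.51 CPM with retinoic acid. Tgm2, a transglutaminase, had 0.587 CPM with the antagonist and 10.9 CPM with retinoic acid.

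**Figure D2:**
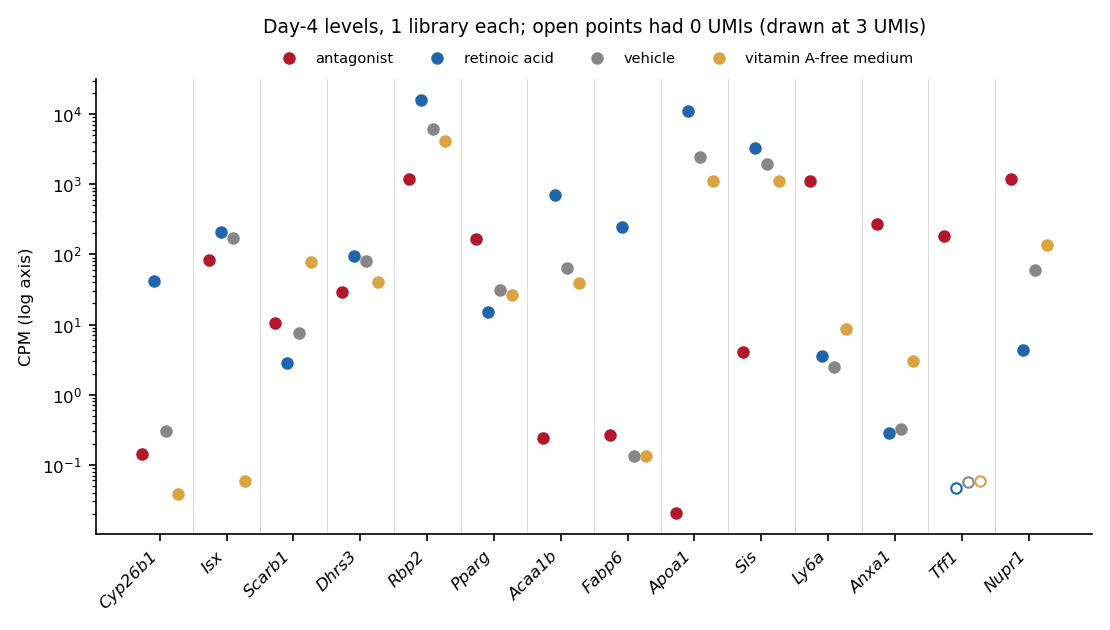
Levels of 14 genes (x axis) in the 4 day 4 libraries (y axis, CPM, log axis), 1 point a library: antagonist, retinoic acid, vehicle and vitamin A-free medium. Open points had 0 UMIs and are drawn at the level of 3 UMIs; Cyp26b1 and Fabp6 were high with retinoic acid alone, Isx was near 0 in vitamin A-free medium alone, and Ly6a, Anxa1 and Tff1 were high with the antagonist alone.

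Targets of PPAR were lower with the antagonist in 13 of the 17 genes at the floor and higher in 1 (12 at the floor in both libraries, 1 higher and 8 lower), with a median log2 ratio of -1.94. Fabp1, the liver-type fatty acid-binding protein, had 4316 CPM with the antagonist and 50437 CPM with retinoic acid (11.7-fold lower, 11.6 to 11.7), against 21358 CPM in vehicle. Acaa1b, a peroxisomal thiolase, had 0.243 CPM (12 UMIs) with the antagonist and 713 CPM with retinoic acid, while vehicle held 63.3 CPM and vitamin A-free medium 39.4 CPM. Cyp4a10, a fatty acid hydroxylase, had 0 UMIs with the antagonist and 128 CPM with retinoic acid, at least 2114-fold lower. Both of these stood well above vehicle in the retinoic acid library, as Cyp4a10 had only 0.114 CPM there. Acot1, an acyl-CoA thioesterase, had 121 CPM with the antagonist and 1435 CPM with retinoic acid, and Pdk4, which turns off pyruvate oxidation, 2.55 CPM with the antagonist and 59.6 CPM with retinoic acid. Txnip, which limits glucose uptake, was the list's 1 higher member, with 1030 CPM with the antagonist and 171 CPM with retinoic acid. Enzymes of mitochondrial and peroxisomal fatty acid oxidation, all 22 of them at the floor in both libraries, were lower in 9 and higher in none, with a median log2 ratio of -0.92. Relative to the median of all genes 13 were lower. Crot, the peroxisomal carnitine octanoyltransferase, led these with 37.9 CPM with the antagonist and 179 CPM with retinoic acid, against 63.1 CPM in vehicle.

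Targets of the bile acid receptor FXR were lower with the antagonist in 6 of 10 genes at the floor and higher in 1, with a median log2 ratio of -2.34, and only 3 of the 10 reached the floor in both libraries. Slc51a and Slc51b, the paired subunits of the basolateral bile acid exporter, had 0.344 and 0.304 CPM with the antagonist against 355 and 491 CPM with retinoic acid. Fabp6, the ileal bile acid-binding protein, had 0.263 CPM (13 UMIs) with the antagonist and 247 CPM with retinoic acid, and both vehicle (0.133 CPM) and vitamin A-free medium (0.135 CPM) were as low as the antagonist. Nr0b2, the repressor SHP, had 0.182 CPM with the antagonist and 58.9 CPM with retinoic acid. Slc10a2, the apical bile acid importer, was the exception, with 10.1 CPM with the antagonist and 0.765 CPM with retinoic acid. LXR targets and genes of lipid synthesis were lower in 8 of 13 and higher in 1 (10 at the floor in both, 1 higher and 6 lower), with a median of -1.43. Abcg5 and Abcg8, the paired exporters of plant sterols, had 5.45 and 5.15 CPM with the antagonist against 273 and 255 CPM with retinoic acid. Scd1, the stearoyl-CoA desaturase, had 121 CPM with the antagonist and 2624 CPM with retinoic acid, against 418 CPM in vehicle. Targets of VDR, PXR and CAR were lower in 10 of 16 and higher in 1 (12 at the floor in both, 1 higher and 6 lower), with a median of -2.01. Cyp3a11, a drug-metabolising cytochrome under PXR, had 0 UMIs with the antagonist and 600 CPM with retinoic acid, at least 9871-fold lower. Cyp2b10, the classical CAR target, had 1.34 CPM with the antagonist and 1057 CPM with retinoic acid (791-fold lower, 621 to 1023). S100g, the vitamin D-dependent calcium-binding protein of the gut, had 83.4 CPM with the antagonist and 2053 CPM with retinoic acid. Members of the Cyp2c, Cyp3a, Ces, Ugt, Gsta, Ly6, Sprr2, Reg3 and H2 families have near-identical copies, and how the counting assigned reads between copies was not tested.

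The absorptive program was lower with the antagonist at nearly every step from digestion to fat export. All 15 of the 21 brush-border enzymes that reached the floor were at least 2-fold lower, with a median log2 ratio of -4.48, though only 2 reached the floor in both libraries. Sis, sucrase-isomaltase, had 3.99 CPM with the antagonist and 3316 CPM with retinoic acid (831-fold lower, 723 to 961), against 1947 CPM in vehicle. Alpi, intestinal alkaline phosphatase, had 3.61 CPM with the antagonist and 362 CPM with retinoic acid. Mep1b, a meprin protease, had 8.45 CPM with the antagonist and 530 CPM with retinoic acid. Sugar, peptide and amino acid transporters were lower in 15 of 20 and higher in 1 (6 at the floor in both, 2 lower), with a median of -2.28. Slc5a1, the apical glucose carrier SGLT1, had 30.7 CPM with the antagonist and 1004 CPM with retinoic acid, and Slc2a2, the basolateral carrier GLUT2, 0.304 CPM with the antagonist and 311 CPM with retinoic acid. Apolipoproteins and chylomicron assembly genes were lower in 8 of 9 and higher in none (5 at the floor in both, 4 lower), with a median of -3.82. Apob, the scaffold of chylomicrons, had 0.993 CPM with the antagonist and 916 CPM with retinoic acid, and Mttp, which loads lipid onto it, 101 CPM with the antagonist and 1495 CPM with retinoic acid. Apoc3 had 0 UMIs with the antagonist and 501 CPM with retinoic acid, at least 8240-fold lower. Genes of fatty acid uptake and triglyceride synthesis were lower in 9 of 14 and higher in none (12 at the floor in both, 7 lower), with a median of -2.08. Fabp2, the intestinal fatty acid-binding protein, had 418 CPM with the antagonist and 15973 CPM with retinoic acid (38.3-fold lower, 37.7 to 38.8), against 2167 CPM in vehicle. Carboxylesterases were lower in 5 of 7 (4 at the floor in both, 2 lower), among them Ces2e with 3.14 CPM with the antagonist and 940 CPM with retinoic acid.

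Microvillus genes moved less evenly: of 12 at the floor 5 were lower and 1 higher (11 at the floor in both, 1 higher and 4 lower), with a median log2 ratio of -0.78. Espn, an actin bundler, had 1.92 CPM with the antagonist and 132 CPM with retinoic acid. Ezr, ezrin, the membrane-to-actin linker, was higher, with 718 CPM with the antagonist and 268 CPM with retinoic acid. Gluconeogenic and fructose-handling genes were lower in 9 of 10 and higher in 1 (6 at the floor in both, all lower), with a median of -3.22. Khk, ketohexokinase, had 27.9 CPM with the antagonist and 1481 CPM with retinoic acid (53.1-fold lower, 50.3 to 56), against 976 CPM in vehicle and 758 CPM in vitamin A-free medium. Urea-cycle and arginine genes were lower in 5 of 8 (6 at the floor in both, 3 lower), and here vehicle was not between the 2 treatments: Otc had 0.101 CPM with the antagonist and 243 CPM with retinoic acid, against 288 CPM in vehicle, and Cps1 had 0.162 CPM with the antagonist and 181 CPM with retinoic acid, against 367 CPM in vehicle. Genes of the villus tip had no common direction, with 4 higher and 2 lower of 10. Il18 had 58.5 CPM with the antagonist and 811 CPM with retinoic acid, while Klf4, a factor of differentiated epithelium, had 93.0 CPM with the antagonist and 21.7 CPM with retinoic acid.

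The promoters of some of the lower genes carried a direct repeat with 1 base between its 2 arms (DR1), the element that RXR pairs such as PPAR with RXR and also HNF4 are known to bind. The windows of RefSeq promoters (GRCm38.p6, 250 bases before to 50 after the start site) were searched on both strands for the letters GGNCA, then an A, then AGNNCA. The letters were found in 10 of the 263 promoters of genes at least 4-fold lower (3.80%) and in 0 of the 206 promoters of genes at least 4-fold higher. Among all 6529 compared genes with a promoter the share was 0.659%, and among all 27025 promoters of the table it was 0.666%. A match is a description of these letters and not a measured site. Stretches upstream of the start site are shown for 4 lower genes picked after their values were seen, to show where the repeat lay relative to the start; capitals mark the match. The windows lie at chr8:104926085-104926156 on the plus strand for Ces2e, chr1:87101607-87101658 on the minus strand for Alpi, chr17:85028275-85028346 on the plus strand for Slc3a1 and chr12:84038336-84038378 on the plus strand for Acot4, where the match is on the opposite strand.
Ces2e: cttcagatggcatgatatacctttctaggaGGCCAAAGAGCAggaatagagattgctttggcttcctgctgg
Alpi: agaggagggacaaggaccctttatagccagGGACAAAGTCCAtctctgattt
Slc3a1: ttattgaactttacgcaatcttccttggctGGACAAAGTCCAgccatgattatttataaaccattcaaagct
Acot4: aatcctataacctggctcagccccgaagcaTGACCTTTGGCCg
The match ended 11 bases before the start site in Alpi, 31 in Slc3a1, 134 in Ces2e and 2 in Acot4. Alpi and Slc3a1 held the same 12 letters. The letters GGTCA repeated once with 5 bases of any kind between were found in 0 promoters of either 4-fold set and in 0.0306% of all compared genes. This spacing is not that of the classical retinoic acid element, for which no search was made. A CDX-type motif (TTTATNG) was in 18.6% of promoters of the lower set, 8.74% of the higher set and 8.30% of all compared genes. Over all promoters of the table its share was 12.5%.

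Transcription factors of intestinal identity did not follow the absorptive genes: of 17 at the floor 5 were higher and 2 lower (14 at the floor in both, 4 higher and 1 lower), with a median log2 ratio of 0.41 (0.08 relative to all genes). Hnf4a, the main factor of enterocyte genes, had 172 CPM with the antagonist and 129 CPM with retinoic acid, and Cdx2, the factor that sets intestinal fate, 221 CPM with the antagonist and 157 CPM with retinoic acid. These values were within 2-fold and are given because both genes define the tissue, not by the rule for named genes. Maf, a factor of mature enterocytes, had 0.182 CPM (9 UMIs) with the antagonist and 29.1 CPM with retinoic acid. Foxa1, a factor of gut endoderm, had 26.6 CPM with the antagonist and 4.82 CPM with retinoic acid, and Elf3, an epithelial ETS factor, 467 CPM with the antagonist and 173 CPM with retinoic acid.

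All 21 genes at the floor on the list of regenerative and fetal-like epithelium, of 25 in the file, were higher with the antagonist, with a median log2 ratio of 3.91 (3.57 relative to all genes). Of these, 10 reached the floor in both libraries and all 10 were higher. Together the list took 34244 CPM with the antagonist and 3174 CPM with retinoic acid, against 4988 CPM in vehicle and 4867 CPM in vitamin A-free medium. In that sum the keratin Krt19 alone held 14131 CPM with the antagonist and 1289 CPM with retinoic acid. S100a6, a calcium-binding protein, had 3097 CPM with the antagonist and 24.1 CPM with retinoic acid (ratio 129, 122 to 135). Msln, mesothelin, a surface protein of mesothelium and of several carcinomas, had 366 CPM with the antagonist and 1.69 CPM with retinoic acid. Clu, clusterin, which marks revival stem cells after injury, had 89.6 CPM with the antagonist and 1.31 CPM with retinoic acid (ratio 68.3, 55.1 to 85.8). The 4 list genes under the floor in both libraries were Ereg, Spp1, Gja1 and Il33. Ereg, a further EGF receptor ligand, had 74 UMIs with the antagonist and 11 with retinoic acid, while Il33, an alarmin, had 23 UMIs with the antagonist and 123 with retinoic acid. Gja1 had 0 UMIs with the antagonist and 2 with retinoic acid, and Spp1 had 0 in both.

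Annexins and S100 proteins, calcium-binding proteins of membranes and cytoskeleton, were higher in 16 of 19 and lower in 1 (14 at the floor in both, 11 higher and 1 lower), with a median log2 ratio of 2.92. Anxa1, which is anti-inflammatory and marks fetal-like epithelium, had 269 CPM with the antagonist and 0.281 CPM (18 UMIs) with retinoic acid, a ratio of 958 (606 to 1618), against 0.323 CPM in vehicle. Anxa3 had 825 CPM with the antagonist and 6.92 CPM with retinoic acid, and Anxa5 780 CPM with the antagonist and 11.6 CPM with retinoic acid. S100a14 had 695 CPM with the antagonist and 4.89 CPM with retinoic acid, and S100a11 1257 CPM with the antagonist and 24.7 CPM with retinoic acid. Outside those 16 were S100g, given above as lower, and 2 genes within 2-fold, S100a1 (log2 ratio 0.57) and the intestinal annexin Anxa13 (-0.08). In the Ly6 family 5 of 6 genes were higher (only 2 at the floor in both, 1 higher and 1 lower), and Lypd8 was lower, with 1406 CPM with the antagonist and 5759 CPM with retinoic acid. Lypd8 is a secreted protein that keeps bacteria off the colonic epithelium. Ly6g had 305 CPM with the antagonist and 0.25 CPM with retinoic acid, and Ly6c1 had 93.4 CPM with the antagonist and 0 UMIs with retinoic acid, at least 1995-fold higher.

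Simple epithelial keratins, the intermediate filaments of gut lining cells, were higher in 5 of 6 (5 at the floor in both, 4 higher), with a median log2 ratio of 3.30. Krt8 had 14625 CPM with the antagonist and 1637 CPM with retinoic acid (ratio 8.93, 8.88 to 8.99), against 2916 CPM in vehicle and 2914 CPM in vitamin A-free medium. Krt19 had 14131 CPM with the antagonist and 1289 CPM with retinoic acid, Krt18 had 4377 CPM with the antagonist and 270 CPM with retinoic acid, and Krt7, a keratin of ducts and stomach, had 1412 CPM with the antagonist and 66.0 CPM with retinoic acid. For each of these 4 keratins the retinoic acid library was the lowest of the 4 at day 4. Genes of squamous-type barriers were higher in 13 of the 15 at the floor, of 29 on the list, and lower in none (7 at the floor in both, 5 higher), with a median of 2.25. Sprr1a, a cornified envelope precursor, had 487 CPM with the antagonist and 12.6 CPM with retinoic acid, Sprr2f had 143 CPM with the antagonist and 0.187 CPM with retinoic acid, and Krt4, a keratin of the esophagus, had 42.4 CPM with the antagonist and 0 UMIs with retinoic acid (at least 906-fold higher). Sprr2a3 had 1107 CPM with the antagonist and 27.3 CPM with retinoic acid, but vehicle held 279 CPM, a level between the 2 treatments. Of 17 genes of stomach epithelium 5 reached the floor, all of them through the antagonist library alone. Tff1, the trefoil factor of gastric pit cells, had 181 CPM with the antagonist and 0 UMIs in the retinoic acid, vehicle and vitamin A-free libraries, at least 3866-fold higher than with retinoic acid. Anxa10, which is abundant in stomach, had 495 CPM with the antagonist and 7.27 CPM with retinoic acid (ratio 68.1, 62.1 to 74.8). Mal had 101 CPM with the antagonist and 0 UMIs with retinoic acid, and Vsig1 had 25.2 CPM with the antagonist and 0 UMIs with retinoic acid.

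Growth factor, matrix and junction genes went the same way in part. Of 8 EGF receptor ligands and receptors at the floor 5 were higher and none lower (5 at the floor in both, 2 higher), with a median log2 ratio of 1.49. Areg, amphiregulin, had 1754 CPM with the antagonist and 175 CPM with retinoic acid (ratio 10.0, 9.82 to 10.2), and Btc, betacellulin, had 169 CPM with the antagonist and 8.79 CPM with retinoic acid. Hbegf, a further ligand, had 140 CPM with the antagonist and 36.8 CPM with retinoic acid, but 146 CPM in vehicle. Of 19 extracellular matrix and migration genes 12 were higher and none lower (12 at the floor in both, 5 higher), with a median of 1.14. Plaur, the urokinase receptor, had 292 CPM with the antagonist and 4.29 CPM with retinoic acid, and Lamb3, a laminin chain of the basement membrane, had 75.9 CPM with the antagonist and 5.23 CPM with retinoic acid. Of 8 YAP and TEAD targets 3 were higher and none lower, but of the 3 at the floor in both libraries 0 were higher. F3, tissue factor, had 472 CPM with the antagonist and 4.34 CPM with retinoic acid, and Ccn2, a matricellular protein, had 21.0 CPM with the antagonist and 0.172 CPM with retinoic acid. Among 15 claudin and tight junction genes 4 were higher and 1 lower. Cldn4 had 278 CPM with the antagonist and 7.76 CPM with retinoic acid, while Cldn15, which forms the sodium pores of the small intestine, had 57.7 CPM with the antagonist and 518 CPM with retinoic acid.

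The AP-1 letters TGANTCA, which Fos and Jun proteins are known to bind, were in 32 of 206 promoters of genes at least 4-fold higher (15.5%) and in 33 of 263 promoters of genes at least 4-fold lower (12.5%). The share was 6.28% over all compared genes and 8.97% over all promoters of the table, so both 4-fold sets held more matches than the compared genes as a whole. For 5 of the higher genes with 2 upstream matches each, picked after their values were seen, the stretch around the matches is shown with the matches in capitals. They lie at chr3:121723361-121723438 on the plus strand (F3), chr3:93520330-93520494 on the plus strand (S100a11), chr8:62123194-62123403 on the minus strand (Anxa10), chr3:92485961-92486057 on the minus strand (Sprr1a) and chr5:134947056-134947184 on the minus strand (Cldn4) of GRCm38.p6.
F3: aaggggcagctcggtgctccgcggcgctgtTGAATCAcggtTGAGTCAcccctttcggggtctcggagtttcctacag
S100a11: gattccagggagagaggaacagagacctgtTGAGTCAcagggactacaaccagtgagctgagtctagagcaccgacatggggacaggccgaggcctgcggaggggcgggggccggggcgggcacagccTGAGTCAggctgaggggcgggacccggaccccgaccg
Anxa10: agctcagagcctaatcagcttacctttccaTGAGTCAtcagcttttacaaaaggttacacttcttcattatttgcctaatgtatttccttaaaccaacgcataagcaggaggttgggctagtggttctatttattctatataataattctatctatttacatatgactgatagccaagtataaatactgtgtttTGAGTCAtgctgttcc
Sprr1a: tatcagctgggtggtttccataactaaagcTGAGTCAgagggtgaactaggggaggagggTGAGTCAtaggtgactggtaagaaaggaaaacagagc
Cldn4: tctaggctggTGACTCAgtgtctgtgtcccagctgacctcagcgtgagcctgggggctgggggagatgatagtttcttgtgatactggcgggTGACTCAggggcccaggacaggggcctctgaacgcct
The match nearer the start site ended 10 bases upstream of it in Anxa10, and in F3 both matches lay close together, 129 to 146 bases upstream. The letters CATTCC, the core that TEAD factors are known to bind, were in 18.4% of the higher set, 18.3% of the lower set and 14% of all compared genes. Over all promoters of the table their share was 16.6%. Ly6d and Ly6a have no entry in the promoter table.

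Immediate early genes, which include Fos and Jun and which respond within minutes to growth factors or to handling, were higher in 12 of 19 and lower in none (16 at the floor in both, 10 higher), with a median log2 ratio of 1.32 (0.98 relative to all genes). Ier3, an early response gene that limits cell death, had 282 CPM with the antagonist and 13.4 CPM with retinoic acid, against 23.2 CPM in vehicle. Fos itself had 635 CPM with the antagonist and 179 CPM with retinoic acid, but vehicle held 660 CPM and vitamin A-free medium 710 CPM. For Fos the retinoic acid library was the one that stood apart, and for Ier3 the antagonist library. Whether dissociation of the organoids played a part was not tested.

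Secretory genes were mostly higher with the antagonist. Of 13 goblet cell genes at the floor 9 were higher and 1 lower (9 at the floor in both, 6 higher and 1 lower), with a median log2 ratio of 1.67. Agr2, a disulfide isomerase needed for mucin folding, had 1494 CPM with the antagonist and 194 CPM with retinoic acid, and Zg16, a lectin of mucus granules, had 1343 CPM with the antagonist and 177 CPM with retinoic acid. Muc13, a membrane mucin that enterocytes also carry, was the lower one, with 72.3 CPM with the antagonist and 439 CPM with retinoic acid. All 8 enteroendocrine genes at the floor, of 29 listed, were higher, but only 1 reached the floor in both libraries. Cck, cholecystokinin, had 380 CPM with the antagonist and 7.90 CPM with retinoic acid (ratio 48.1, 44.0 to 52.6), against 102 CPM in vehicle and 242 CPM in vitamin A-free medium. Gcg, which encodes glucagon-like peptides, had 54.3 CPM with the antagonist and 0.843 CPM with retinoic acid, against 37.5 CPM in vitamin A-free medium. For Gcg and Ghrl (64.2 CPM with the antagonist, 7.74 with retinoic acid, 54.5 in vehicle) it was the retinoic acid level that lay below the other 3 libraries. Nts, neurotensin, had 20.4 CPM with the antagonist and 0 UMIs with retinoic acid, at least 435-fold higher. Paneth cell genes at the floor split, with 2 higher and 2 lower of 7 (3 at the floor in both, 0 higher and 1 lower). Lyz1, the Paneth lysozyme, had 2.03 CPM with the antagonist and 78.9 CPM with retinoic acid, and Defa24, a defensin, had 28.1 CPM with the antagonist and 134 CPM with retinoic acid. The Paneth gate markers Defa30 and Defa17, under the floor in both, had 2 and 6 UMIs with the antagonist and 616 and 255 with retinoic acid. The gate markers Mmp7, Ang4 and Itln1 were within 2-fold, on the higher side. Nupr1, a stress-response factor placed on the Paneth list, had 1172 CPM with the antagonist and 4.31 CPM with retinoic acid (ratio 272, 242 to 307), against 59.6 CPM in vehicle and 136 CPM in vitamin A-free medium. Of 3 tuft cell genes 2 were higher and 1 was lower (1 at the floor in both, 1 higher), and of 5 M cell genes 4 were higher (4 at the floor in both, 3 higher), 2 of them, Anxa5 and Clu, being also on the regenerative list.

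Host defence genes were lower in 6 of 9 and higher in 1 (5 at the floor in both, 1 higher and 3 lower), with a median log2 ratio of -2.93. Reg3a, an antibacterial lectin, had 0.122 CPM (6 UMIs) with the antagonist and 380 CPM with retinoic acid, against 146 CPM in vehicle. Reg1 had 38.7 CPM with the antagonist and 681 CPM with retinoic acid, and Pigr, which carries IgA across the epithelium, had 165 CPM with the antagonist and 1292 CPM with retinoic acid. Genes of antigen presentation were lower in 6 of 11 and higher in none (6 at the floor in both, 2 lower), among them B2m with 175 CPM with the antagonist and 623 CPM with retinoic acid. Of 8 epithelial chemokines and cytokines 2 were higher and 3 lower (5 at the floor in both, 1 higher and 2 lower). Ccl25, which draws lymphocytes to the small intestine, had 20.4 CPM with the antagonist and 1548 CPM with retinoic acid (75.8-fold lower, 71.2 to 80.7), against 1045 CPM in vehicle. Il1rn, which encodes the blocker of the interleukin-1 receptor, had 183 CPM with the antagonist and 0.437 CPM with retinoic acid. Interferon response genes were higher in 1 and lower in 2 of 7 (5 at the floor in both, 1 lower), and genes of colon epithelium were higher in 1 and lower in 3 of 5 (3 at the floor in both, 2 lower). Of 15 immune cell genes 1 reached the floor, Cd68, a lysosomal protein, with 11.5 CPM with the antagonist and 0.484 CPM with retinoic acid, and its source was not tested.

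Crypt stem cell genes at the floor had no common direction, with 2 higher and 1 lower of 15 (9 at the floor in both, 2 higher). Their median log2 ratio was 0.05, or -0.28 relative to all genes. Both libraries held far less of the list than vehicle, 366 CPM with the antagonist and 387 CPM with retinoic acid, against 1212 CPM in vehicle and 2044 CPM in vitamin A-free medium. Olfm4, a secreted marker of crypt base cells, had 0.750 CPM with the antagonist and 66.5 CPM with retinoic acid (88.8-fold lower, 64.3 to 126), against 279 CPM in vehicle and 547 CPM in vitamin A-free medium. Lgr5, the R-spondin receptor that marks these cells, had 12.8 CPM with the antagonist and 5.51 CPM with retinoic acid, against 36.8 CPM in vehicle and 74.8 CPM in vitamin A-free medium. Ascl2 and Axin2 were under the floor in both libraries and are named here after their values were seen. They had 0.851 and 2.78 CPM with the antagonist and 4.95 and 9.24 CPM with retinoic acid. The 5 markers used further on for the stem gate, Lgr5 included, summed to 57.2 CPM with the antagonist and 137 CPM with retinoic acid. DNA replication genes were within 2-fold in all 20 cases (median -0.25, or -0.59 relative to all genes). Of 21 mitosis genes 2 were higher (median 0.38, or 0.05 relative to all genes). Kif23, a kinesin of cytokinesis, had 53.7 CPM with the antagonist and 11.7 CPM with retinoic acid. Wnt targets were higher in 3 of 7 (3 at the floor in both, 2 higher) and, relative to the median of all genes, in 1. Of 3 Notch pathway genes at the floor 1 was higher, Hes1, with 75.8 CPM with the antagonist and 26.2 CPM with retinoic acid, against 83.9 CPM in vehicle.

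Carbon metabolism differed in both directions. All 26 genes of glycolysis and the hypoxia response were at the floor, and 23 were higher and none lower (22 at the floor in both, 19 higher), with a median log2 ratio of 1.34. Relative to the median of all genes 14 were higher. Hk1, hexokinase 1, had 112 CPM with the antagonist and 1.03 CPM with retinoic acid (ratio 109, 85.6 to 141), against 6.57 CPM in vehicle. Slc2a1, the glucose carrier GLUT1, had 412 CPM with the antagonist and 19.3 CPM with retinoic acid, against 81.2 CPM in vehicle. Pgk1, phosphoglycerate kinase, had 4134 CPM with the antagonist and 775 CPM with retinoic acid, against 1899 CPM in vehicle, and Egln3, an oxygen sensor, had 449 CPM with the antagonist and 32.7 CPM with retinoic acid, against 173 CPM in vehicle. For Slc2a1, Pgk1 and Egln3 vehicle lay between the 2 treatments. Mitochondrially encoded subunits were lower in 4 of 10 and higher in none (9 at the floor in both, 4 lower; median -0.90, or -1.23 relative to all genes), with mt-Nd1 at 3552 CPM with the antagonist and 8949 CPM with retinoic acid, against 7301 CPM in vehicle. Nuclear genes of oxidative phosphorylation were lower in 3 of 24 (23 at the floor in both, 2 lower), with a median of -0.54. Cox7a1, a subunit of cytochrome oxidase, had 5.57 CPM with the antagonist and 132 CPM with retinoic acid. Ribosomal protein genes were higher in 1 of 31 and lower in none (28 at the floor in both, 1 higher), with a median of 0.66.

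Stress genes differed by branch. Of 26 genes of the integrated stress and unfolded protein responses 10 were higher and none lower (23 at the floor in both, 8 higher), with a median log2 ratio of 0.83. The list summed to 7442 CPM with the antagonist and 3610 CPM with retinoic acid, against 5835 CPM in vehicle and 5696 CPM in vitamin A-free medium. Asns, asparagine synthetase, had 491 CPM with the antagonist and 71.8 CPM with retinoic acid, Phgdh, the first enzyme of serine synthesis, had 277 CPM with the antagonist and 38 CPM with retinoic acid, and Chac1, which cleaves glutathione, had 45.7 CPM with the antagonist and 1.86 CPM with retinoic acid. NRF2 targets split, with 6 higher and 5 lower of 24 (21 at the floor in both, 3 higher and 5 lower). Slc7a11, the cystine carrier, had 111 CPM with the antagonist and 3.76 CPM with retinoic acid, and Hmox1, heme oxygenase, had 88.1 CPM with the antagonist and 2.93 CPM with retinoic acid, while Fth1, the ferritin heavy chain, had 4142 CPM with the antagonist and 27066 CPM with retinoic acid (6.53-fold lower, 6.5 to 6.56). Of 18 p53 targets 4 were higher and 2 lower (9 at the floor in both, 1 higher), led by Gdf15, a stress cytokine, with 85.2 CPM with the antagonist and 5.04 CPM with retinoic acid. Conjugating enzymes were lower in 9 of 23 and higher in 2 (17 at the floor in both, 1 higher and 4 lower), with Sult1b1, a sulfotransferase, at 0.304 CPM with the antagonist and 539 CPM with retinoic acid. Cholesterol synthesis genes were higher in 6 of 24 and lower in 1, and relative to the median of all genes 1 was higher and 1 lower. That list summed to 5950 CPM with the antagonist and 3677 CPM with retinoic acid, against 6009 CPM in vehicle and 5488 CPM in vitamin A-free medium. The p53 list summed to 1666 CPM with the antagonist and 955 CPM with retinoic acid, against 1433 CPM in vehicle and 1453 CPM in vitamin A-free medium. Metallothionein and metal storage genes were lower in 4 of 6, with Mt1 at 513 CPM with the antagonist and 1680 CPM with retinoic acid. In each list of this paragraph the shares are to be read beside the 13.4% and 9.19% of all genes.

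**Figure D3:**
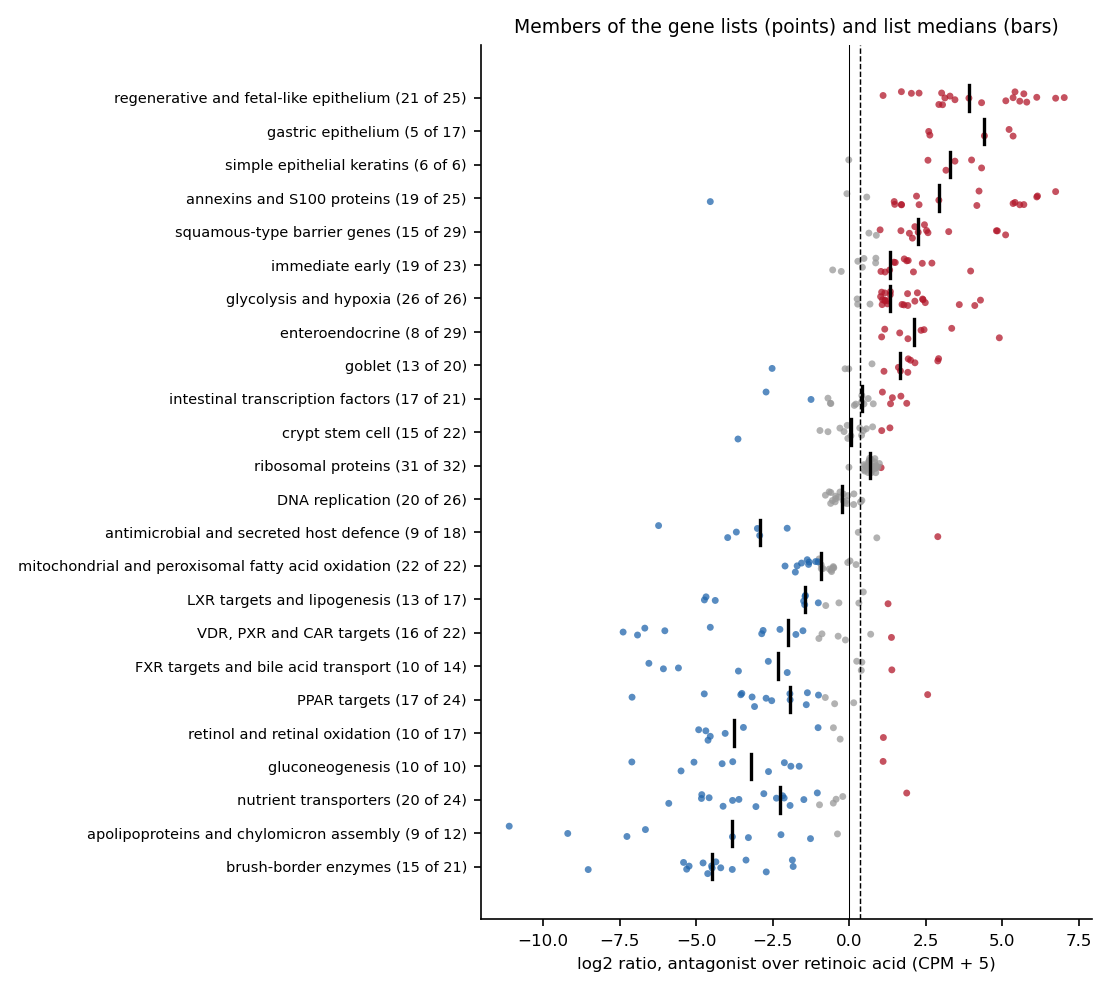
Log2 ratio of the antagonist over retinoic acid (x axis, CPM + 5) for the members of each gene list (y axis, with the number at the floor of the number in the file), 1 point a gene, black bars the list medians. The brush-border list has its median at -4.48 and the regenerative and fetal-like list at 3.91. DNA replication (-0.25) and crypt stem cell genes (0.05) lie below the dashed median of all genes at 0.33, but within 2-fold of it.

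To see whether the differences ran through most cells or came from a few, each cell was thinned to 4000 UMIs, which kept 3406 antagonist and 5144 retinoic acid cells and left out 164 antagonist and 221 retinoic acid cells that were shallower. At that depth the median cell had 1853 genes with the antagonist and 1603 with retinoic acid. The regenerative list took a median of 2.96% of a cell's UMIs with the antagonist (10th to 90th percentile 1.15% to 5.94%) and 0.275% with retinoic acid (0.150% to 0.500%). Of the antagonist cells 98.9% lay above the 90th percentile of the retinoic acid cells, so for the list as a sum the 2 ranges barely met. Vehicle cells were near retinoic acid cells, with a median of 0.450% (0.225% to 0.825%). Krt19 held 14131 of the list's 34244 CPM with the antagonist. By itself it lay above its own 90th percentile in retinoic acid cells (11 UMIs) in 97.4% of antagonist cells. For Anxa5, S100a6, Msln and Clu that percentile was 0, so the same share counts cells with at least 1 UMI of the gene. It was 86.5% for Anxa5, 84.3% for S100a6, 35.3% for Msln and 13.4% for Clu. Msln and Clu were thus not detected in most antagonist cells at 4000 UMIs, a depth at which a low gene can be missed. The keratin list, which also holds Krt19 and so shares UMIs with the regenerative list, took 3.05% with the antagonist (1.33% to 5.85%). With retinoic acid it took 0.275% (0.125% to 0.675%). Single genes of these lists varied more. Per 4000 UMIs S100a6 had a median of 7 UMIs with the antagonist (0 to 29) and 0 with retinoic acid (0 to 0). Krt8 had 52 with the antagonist (20 to 100) and 5 with retinoic acid (2 to 13). Ly6d, which had the highest log2 ratio with 5 CPM added, had a median of 0 with the antagonist and a 90th percentile of 19, so its UMIs came from a part of the cells. Ly6a was between these, with a median of 1 and a 90th percentile of 12 with the antagonist and 0 at both with retinoic acid.

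Absorptive genes were at the low end in most antagonist cells. Brush-border enzymes took 0% of UMIs in the median antagonist cell (90th percentile 0.025%) and 0.675% in the median retinoic acid cell (0.050% to 1.03%). Per 4000 UMIs Sis had a 90th percentile of 0 with the antagonist, against a median of 14 and a 90th percentile of 24 with retinoic acid. Apolipoprotein and chylomicron genes took 0.075% with the antagonist (0.025% to 0.125%) and 1.80% with retinoic acid (0.100% to 3.75%). Fatty acid uptake genes took 0.25% with the antagonist, with a 90th percentile of 1.68%, and 7.68% with retinoic acid (1.25% to 9.88%), so a minority of antagonist cells kept a moderate level. Fabp1, a gene of that list, had a median of 1 UMI and a 90th percentile of 57 with the antagonist, against a median of 207 and a 90th percentile of 310 with retinoic acid. Glycolysis genes took 2.63% with the antagonist (1.53% to 4.00%) and 1.13% with retinoic acid (0.725% to 1.6%), with vehicle at 1.95%. Ribosomal protein genes took 4.65% with the antagonist (3.05% to 6.23%) and 2.43% with retinoic acid (0.875% to 5.48%). Vehicle was at 5.18% and vitamin A-free medium at 5.80%, so for these genes the retinoic acid library was the one that stood apart.

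**Figure D4:**
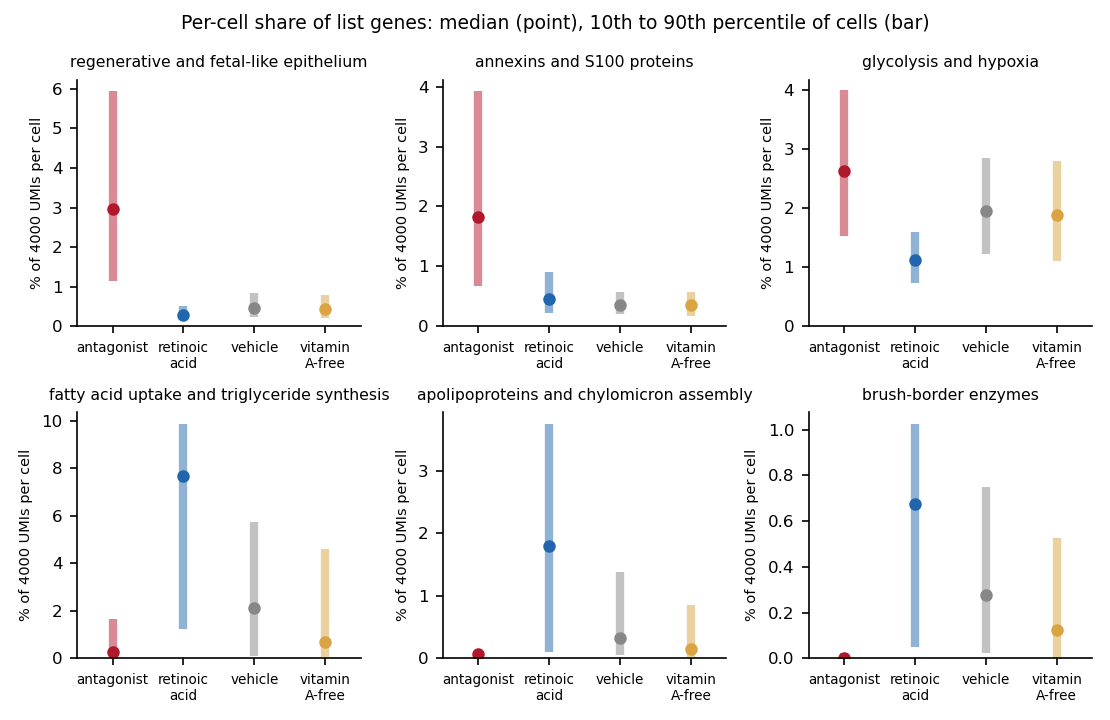
Share of each cell's 4000 UMIs (y axes, percent) taken by 6 gene lists in the 4 day 4 libraries (x axes), with points at the median cell and bars spanning the 10th to 90th percentile of cells. For the regenerative list the antagonist bar (1.15% to 5.94%) lies above the retinoic acid bar (0.150% to 0.500%), and for brush-border enzymes the antagonist bar stays at or under 0.025%.

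Cells were then gated at 4000 UMIs by having at least 3 genes of a marker list, which gives ranges and not cell types. The enterocyte gate held 534 antagonist cells (15.7%, exact binomial 95% interval 14.5% to 16.9%) and 5022 retinoic acid cells (97.6%, 97.2% to 98.0%). Its share was 86.9% in vehicle and 76.3% in vitamin A-free medium. These intervals cover the counting of cells within a library and not the spread between cultures. With 2 marker genes the share was 45.7% with the antagonist and 99.6% with retinoic acid, and with 4 it was 1.41% with the antagonist and 92.0% with retinoic acid, so the antagonist share depended on the number asked for. Marker UMIs of free RNA can count towards a gate, and their part was not tested. The stem gate held 5 antagonist cells (0.147%) and 147 retinoic acid cells (2.86%), against 10.6% in vehicle and 18.9% in vitamin A-free medium. The goblet gate held 434 antagonist cells (12.7%) and 121 retinoic acid cells (2.35%), and with 4 genes 193 antagonist cells (5.67%) and 100 retinoic acid cells (1.94%). In the median cell of the 3-gene goblet gate goblet genes took 0.300% of UMIs with the antagonist and 2.18% with retinoic acid, while the 90th percentile was 14.9% with the antagonist and 13.6% with retinoic acid. The antagonist goblet gate was therefore mostly cells with few goblet UMIs. The enteroendocrine gate held 32 antagonist cells (0.940%) and 15 retinoic acid cells (0.292%), and the Paneth gate 45 antagonist cells and 75 retinoic acid cells. Of antagonist cells, 2237 passed none of the 5 gates for enterocyte, goblet, Paneth, enteroendocrine and cycling genes, and in these the regenerative list took a median of 3.60%. In the 534 antagonist cells of the enterocyte gate it took a median of 1.85%, and fatty acid uptake genes, of which Fabp1 and Fabp2 helped define the gate, took 1.1%. The regenerative list, Krt19 included, was thus also high in the antagonist cells with the most enterocyte markers, against 0.275% in the 5022 gated retinoic acid cells.

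The cycling gate offered the closest match in size, with 276 antagonist cells (8.10%) and 412 retinoic acid cells (8.01%), against 18.8% in vehicle and 24.6% in vitamin A-free medium. Summed UMIs of the gated cells were 4544176 with the antagonist and 5775139 with retinoic acid, and of 8673 genes compared there, with the gate's own genes left out, 536 were higher by that rule (6.18%) and 540 lower (6.23%), with a median log2 ratio of -0.06. In the gates a gene was compared if it reached the floor in either gated sum, which by itself favours a difference. Counts at the floor in both are not given for the gates. The regenerative list was higher in 20 of 21 and lower in none, with a median of 3.65 against 3.91 in the whole libraries. Ly6a had 1458 CPM in gated antagonist cells and 13.5 CPM in gated retinoic acid cells (ratio 108, 86.4 to 137), and S100a6 2742 CPM with the antagonist and 19.2 CPM with retinoic acid. Glycolysis genes were higher in 21 of 26 there, with a median of 1.68, and Hk1 had 73.9 CPM with the antagonist and 1.39 CPM with retinoic acid. NRF2 targets were higher in 8 of 22 and lower in none, with Slc7a11 at 104 CPM with the antagonist and 8.31 CPM with retinoic acid. Some list medians were nearer to 0 in the gate than in the whole libraries: fatty acid oxidation was at -0.19 there, with no gene past 2-fold, and PPAR targets at -0.78, against -0.92 and -1.94 in the whole libraries. Others were farther from 0, such as genes of retinoic acid breakdown, at -1.87 there against -1.42. Ribosomal proteins were at -0.21 there and at 0.66 in the whole libraries. Brush-border enzymes were lower in 9 of 9, with a median of -2.62, and apolipoprotein and chylomicron genes in 7 of 9, with a median of -2.46. The brush-border list summed to only 48.2 CPM in gated antagonist cells, against 659 CPM in gated retinoic acid cells. Most of the 9 thus reached the floor through the retinoic acid cells alone. Enterocyte markers summed to 946 CPM in gated antagonist cells and 16552 CPM in gated retinoic acid cells, and in the whole libraries to 4845 CPM with the antagonist and 98608 CPM with retinoic acid, and the part of free RNA or of doublets in these was not tested.

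Crypt genes, which had no common direction among the 15 at the floor in the whole libraries, were lower in the cycling gate. Of 18 stem cell genes at the floor there 12 were lower and none higher, with a median log2 ratio of -1.63. The floor was needed on either side only, and Olfm4, Ascl2 and Axin2 were under it in gated antagonist cells. Over the whole libraries Ascl2 and Axin2 were under it in both, so the medians of the gate and of the whole libraries cover different genes. Olfm4 had 2.42 CPM (11 UMIs) in gated antagonist cells and 466 CPM in gated retinoic acid cells (193-fold lower, 107 to 386). Ascl2, a Wnt-driven factor of crypt base cells, had 1.76 CPM (8 UMIs) in gated antagonist cells and 40.9 CPM in gated retinoic acid cells. Axin2, a direct Wnt target, had 8.36 CPM with the antagonist and 66.8 CPM with retinoic acid, and Smoc2, a matricellular protein of crypt base cells, 74.4 CPM with the antagonist and 340 CPM with retinoic acid. Lgr5 differed less, with 24.2 CPM in gated antagonist cells and 39.3 CPM in gated retinoic acid cells (1.62-fold lower, 1.29 to 2.06), while over the whole libraries its ratio was 2.32 (2.04 to 2.65). Ascl2, Axin2, Smoc2, Slc7a11 and Lgr5 were named for this gate after their values were seen. Wnt targets as a list were lower in 4 of 10 and higher in none, with a median of -0.82, and DNA replication genes were lower in 3 of 26, with a median of -0.72 against -0.25 in the whole libraries (13 of 26 and -0.99 where 2 marker genes were asked for). Lyz1 had 3 UMIs in gated antagonist cells and 288 CPM in gated retinoic acid cells, 436-fold lower (149 to 2116). In the goblet gate, where 631 of 8841 genes were higher (7.14%) and 1051 lower (11.9%), the regenerative list was higher in 17 of 19 and glycolysis in 23 of 26. Cycling markers in that gate summed to 214 CPM in gated antagonist cells and 1356 CPM in gated retinoic acid cells, and mitosis genes were lower in 25 of 26.

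**Figure D5:**
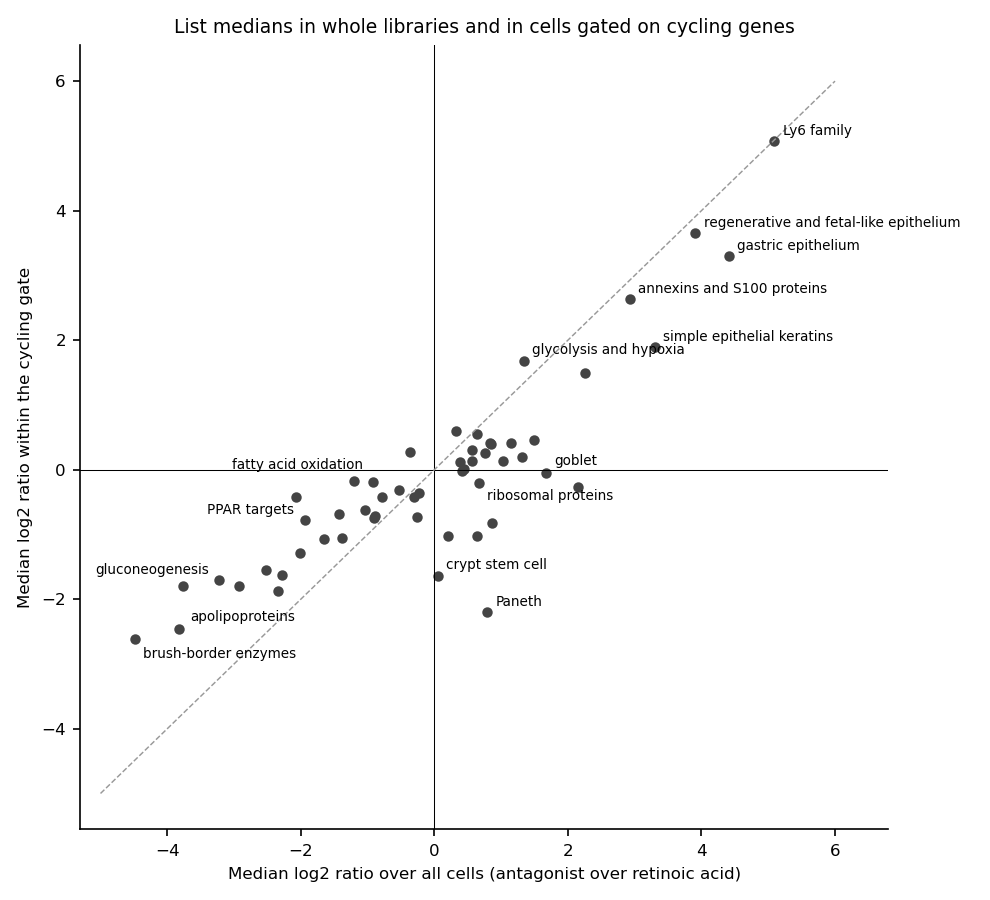
Median log2 ratio of each gene list, antagonist over retinoic acid, over all cells (x axis) and within cells gated on cycling genes (y axis), 1 point a list with at least 5 genes at the floor in both settings, dashed line equal values. The regenerative list keeps its place (3.91 and 3.65), crypt stem cell genes drop from the line (0.05 and -1.63) and fatty acid oxidation lies nearer 0 in the gate (-0.92 and -0.19). The genes at the floor can differ between the settings, with 15 crypt stem cell genes over all cells and 18 in the gate.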

How the data were processed

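The deposited files were 10x single-cell matrices of whole-number UMI counts per gene and cell, 1 per library, for 55335 gene IDs. Per the submitters' processing notes, bcl2fastq 2.17 and Cell Ranger 3.1.0 with GRCm38 were used. Per the labels' protocols, organoids were broken up and digested with TrypLE and sorted to discard debris and dead cells. In the deposited counts each of the 2 libraries compared held cells with at least 1002 genes and under 10% mitochondrial UMIs, so the authors' table had been filtered on cells. Here UMIs were summed over all barcodes of a library and scaled to its total. Doublets were kept in the values given and were removed in an alternative (102 antagonist and 230 retinoic acid barcodes by simulated-doublet scores). Cells were thinned without replacement to 4000 UMIs for per-cell values. With 1 library a side no test was run, and the comparison is of these 2 libraries. The 63 gene lists and the gate markers were chosen with earlier results of these data known. The text names the 6 retinoid receptor genes, the 15 highest and 15 lowest ratios without predicted genes, and per list the 5 members whose ratios were widest, and says where it names others. A few genes that this rule takes are not reported here. List counts are descriptions beside those of all genes. The 11 settings tried covered scaling, floor, added CPM, depth, doublets and the size of fold. Scripts in Python 3.11.15 (numpy 2.4.6, scipy 1.17.1, scikit-learn 1.9.0) and edgeR 4.0.16 for TMM factors in R 4.3.3 were tested on simulated data.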

Additional observations from a re-analysis of the deposited data

How the results depend on the processing

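No paired analysis was possible because each treatment was 1 library and no result came from a test. The number of genes at least 2-fold higher was 1096 at equal totals, 666 with TMM factors, 673 with median-of-ratios size factors, 599 with a floor of 50 CPM and 274 at 4-fold. It was 1550 with mean UMIs per cell and 1395 with 1 CPM added. The number at least 2-fold lower was 752 at equal totals, 453 with a floor of 50 CPM and 324 at 4-fold. It was 1034 with TMM factors, 1028 with median-of-ratios size factors, 648 with mean UMIs per cell and 838 with 1 CPM added. Of the list medians past 2-fold, 3 changed sign: tuft genes were at -0.28 with cells thinned to 5000 UMIs, host defence genes at 0.054 with no floor and immune genes at -0.077 with no floor, and each of these 3 lists had under 10 genes at the main floor. Medians nearer 0 also changed sign under some settings for retinoid receptors, coregulators, retinoic acid response, crypt stem cell, Paneth, interferon and NRF2 genes. Over all lists, 551 medians stayed within the spread allowed and 44 moved, sign changes near 0 included, while the ratios of named genes stayed in 2102 cases and moved in 106. No named gene past 2-fold changed sign, but 2 nearer 0 did: Rxrb ran from -0.11 to 0.38 and Hes6 from -0.52 to 0.042. In the cycling and goblet gates 210 list medians stayed and 21 moved with the number of marker genes asked for. Counting error is small for most named genes, and the spread between cultures or mice was not measured here, since 1 library stood on each side. Genes under 10 CPM in both libraries were not compared.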
